A study of Mus musculus with 6 samples.

Results

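Mature B cells that carry major histocompatibility complex (MHC) class II transcripts made up 134 of the 3360 barcodes retained from 6 mouse spinal cord libraries. A barcode is the short sequence tag that Drop-seq, a droplet method, attaches to the RNA of a captured cell, and a UMI is a tag that marks a captured RNA molecule. Barcodes had to list at least 200 genes with at most 20% mitochondrial UMIs. They also had to carry at least 1 UMI over the B-cell genes Cd79a, Cd79b, Ms4a1 and Ighm, at least 3 UMIs over the class II genes Cd74, H2-Aa, H2-Ab1 and H2-Eb1, and 0 UMIs over the precursor genes Vpreb1, Vpreb3, Igll1 and Dntt. The cells were chosen by the measured UMIs of these 12 genes, so the values of those genes are described below without a test. The 3 groups were cords with genotype SOD1-G93A given Necrostatin-1s (SOD1-Nec), cords with genotype SOD1-G93A given vehicle (SOD1-Veh) and wild-type cords given vehicle (WT-Veh), with 2 libraries each. SOD1-G93A is a mutant SOD1 transgene used as a mouse model of amyotrophic lateral sclerosis, and Necrostatin-1s inhibits RIPK1, a kinase of the necroptosis pathway. The cords were digested with Accutase, freed of myelin and enriched for live cells on an OptiPrep gradient. The labels give neither ages nor separate animals. A p-value here weighs a difference against the spread between libraries, and that spread may be technical.

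B cells start in the bone marrow as precursors that rearrange their immunoglobulin genes, divide and pair the heavy chain with a surrogate light chain. Once a true light chain is made, the cell leaves the precursor state, takes up surface immunoglobulin and moves into blood and lymphoid organs. Mature B cells take up antigen through this receptor and present its peptides on MHC class II, whose assembly needs the invariant chain Cd74 and the peptide-exchange proteins H2-DM and H2-O. Few B cells reside in the healthy spinal cord itself; B cells are found in the blood, in the meninges and in the marrow of the surrounding bone.

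The cells were shallowly sequenced. Mature B cells had a median of 497 UMIs (range 262 to 7015) and 322.5 detected genes per barcode. Precursor B cells, the 194 retained barcodes with the same B-gene minimum and at least 1 UMI of a precursor gene, had 594.5 UMIs and 395.5 genes. Vpreb3 was present in 191 of the 194, Igll1 in 18, Vpreb1 in 12 and Dntt in 6, so Vpreb3 in effect defined this set. SOD1-Nec gave 24 of 661 and 35 of 794 retained barcodes as mature cells, SOD1-Veh 20 of 399 and 24 of 437, and WT-Veh 16 of 515 and 15 of 554. Libraries held 1508618 to 1767205 UMIs in all their barcodes together. Of the mature cells, 33 met the B-gene rule with exactly 1 UMI, 25 with 2 and 76 with 3 or more. On the class II side 8 cells held exactly 3 UMIs, just inside the rule, and 79 held at least 10. Just outside it were 16 B-gene barcodes with 2 class II UMIs, 27 with 1 and 206 with 0. A further 38 B-gene barcodes had 3 or more class II UMIs but also a precursor-gene UMI, 19 of them exactly 1, and counted as precursors.

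B-cell genes that the rule did not use were read to check the name. Of the 134 mature cells, 123 carried a UMI of at least 1 of 11 other B-lineage genes, against 386 of the 2783 retained barcodes without B-gene UMIs. A closer set is the 64 retained barcodes that met the class II and precursor parts of the rule with 0 B-gene UMIs. Among those, 23 carried such a UMI. Of the 11 mature cells with exactly 1 B-gene UMI and a myeloid UMI, 5 did. Igkc, the constant region of the kappa light chain, was seen in 95 of 134 mature cells (70.9%, exact 95% binomial interval 62.4 to 78.4), in 56.2% of precursors and in 0.898% of barcodes without B-gene UMIs. The share in barcodes that should lack this gene gives the background level, and Igkc lay above it in mature cells. Intervals and floors here cover counting error only.

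**Figure D1:**
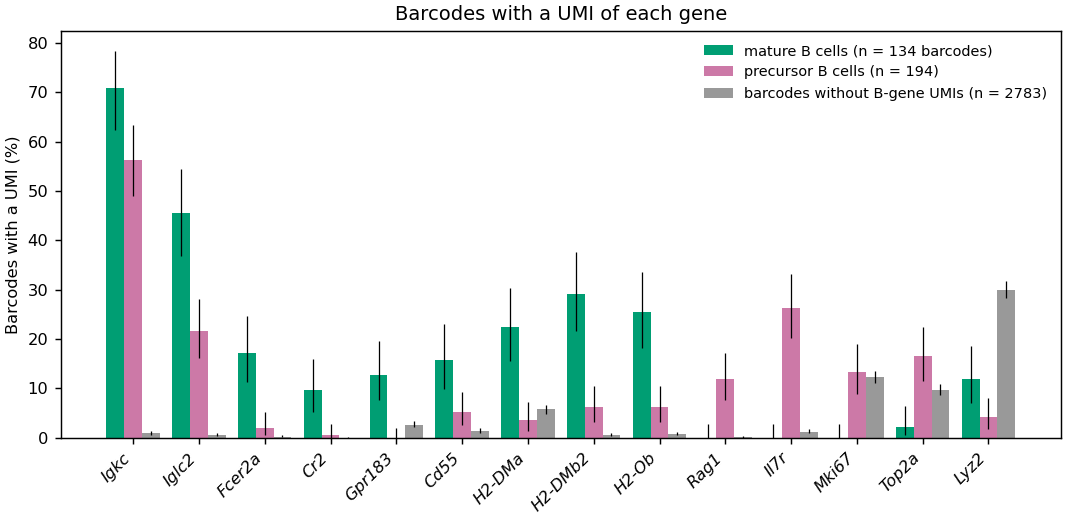
Percentage of barcodes with at least 1 UMI of each of 14 genes outside the rule in mature B cells, precursor B cells and retained barcodes without B-gene UMIs, with exact 95% binomial intervals for counting error. Mature cells stand highest for Iglc2, Fcer2a, Cr2, H2-DMb2 and H2-Ob, and hold no UMI of Rag1, Il7r or Mki67.

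Some of the 134 barcodes also held RNA of other cells. A UMI of 8 myeloid marker genes was found in 19 of them, 2 and 5 in SOD1-Nec, 2 and 4 in SOD1-Veh and 3 and 3 in WT-Veh. Those 19 had a median of 1 B-gene UMI and a light chain UMI in 8 cells, while the other 115 had a median of 3 B-gene UMIs and a light chain UMI in 97. A SOD1-Nec 2 barcode with 7015 UMIs held 209 of the 339 microglial marker UMIs found in all mature cells. A SOD1-Veh 2 barcode with 5022 UMIs held 130 of the 280 monocyte UMIs and all 31 T and NK cell UMIs, on 1 B-gene UMI and 61 class II UMIs, and the T cell genes Cd3d, Cd3e and Cd3g were at 0. A WT-Veh 2 barcode with 2740 UMIs held 195 class II UMIs and 25 monocyte UMIs. None of these 3 barcodes held a light chain UMI. The dendritic cell gene Flt3 had 1 UMI in all mature cells and Itgax 6. Results that rest on the 19 barcodes are given with and without them.

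Another barcode stood apart by its own B-lineage RNA. It came from SOD1-Nec 2 and held 4041 UMIs from 1002 genes. Igkc took 896 of these (22.2%), Ighm, the IgM heavy chain, 876 (21.7%), and Igj, the joining chain of secreted IgM, 207 (5.12%). All 207 Igj UMIs of the mature cells lay in this barcode. It had 4 UMIs of Mzb1 and 5 of Xbp1, genes of the secretory pathway of antibody-producing cells, 1 of Sdc1 and 0 of Prdm1, Irf4, Cd79a, Cd79b and Ms4a1. It is left out of the class II levels by library and of the summed kappa and lambda UMIs below. The light chain counts per cell and the fits keep it, unless stated.

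Cd74, the invariant chain, was the most frequent class II transcript. It gave 53.7% of the class II UMIs, ahead of H2-Ab1 (18.3%), H2-Aa (16.9%) and H2-Eb1 (11.1%), which encode the chains of the peptide-binding molecule. All 4 genes were present in 62 cells, 3 in 41, 2 in 23 and 1 in 8. As a share of the UMIs of the mature cells, the 4 genes together stood at 1.79% and 1.27% in SOD1-Nec. The values were 2.44% and 3.31% in SOD1-Veh, and 3.06% and 3.73% in WT-Veh. The SOD1-Nec libraries were the lowest and did not overlap with the others, while SOD1-Veh and WT-Veh overlapped. Without the 19 barcodes with a myeloid UMI the values were 1.95% and 1.80% in SOD1-Nec, 2.30% and 3.43% in SOD1-Veh and 3.13% and 2.11% in WT-Veh. The SOD1-Nec libraries again stood lowest, by a smaller margin. These genes chose the cells, so the difference has no test, and the libraries also differed in depth. Under 500 UMIs were found in 36 of 59 SOD1-Nec cells, 17 of 44 SOD1-Veh cells and 15 of 31 WT-Veh cells.

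**Figure D2:**
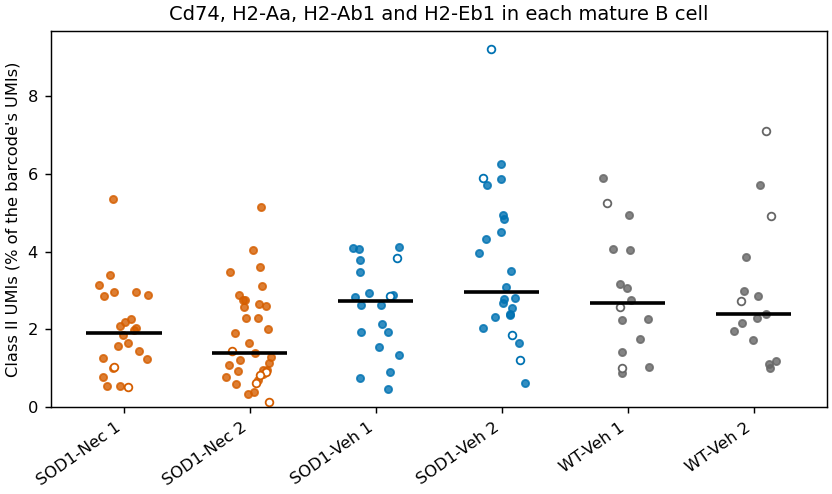
Share of each mature B cell's UMIs (%) from Cd74, H2-Aa, H2-Ab1 and H2-Eb1, by library, with the median as a line. Open circles are cells with a UMI of a myeloid marker gene, which include the highest cells of SOD1-Veh 2 and WT-Veh 2.

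Light chains were often seen in pairs. Igkc without Iglc2, a lambda constant region, was found in 44 mature cells, Iglc2 without Igkc in 10, both in 51 and neither in 29. Precursors held Igkc alone in 86 barcodes, Iglc2 alone in 19, both in 23 and neither in 66. Of the 67 mature cells with at least 3 light chain UMIs, 23 had at least 90% kappa, 3 had at least 90% lambda and 41 were mixed. By textbook a B cell keeps a single light chain type. Among the 2783 barcodes without B-gene UMIs, 18 held Igkc alone, 8 Iglc2 alone and 7 both. The source of the mixed cells was not tested. Iglc2 has near-identical lambda paralogs, so which of them gave its reads is uncertain. In both sets kappa UMIs outnumbered lambda UMIs, with 271 against 154 in the mature cells after the Igj barcode was left out.

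**Figure D3:**
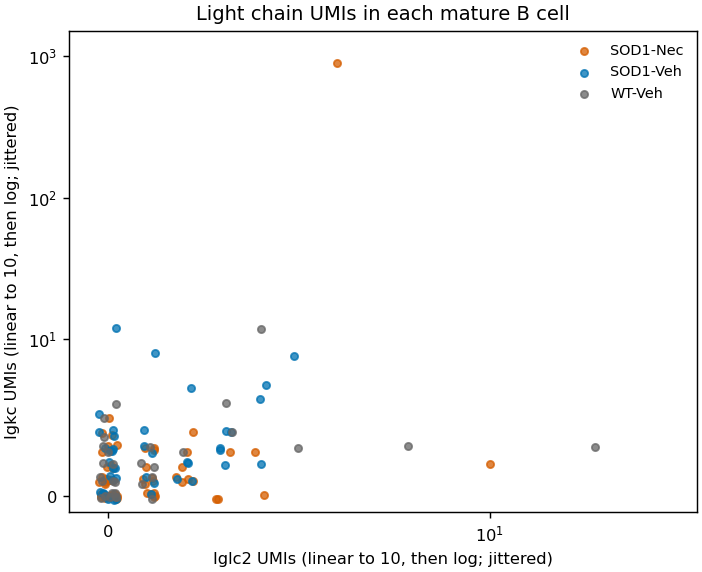
UMIs of Igkc against UMIs of Iglc2 in each mature B cell, coloured by group, on axes that are linear to 10 and logarithmic above, with points jittered. Most cells hold a few UMIs of either gene, many hold both, and the Igj-rich SOD1-Nec barcode stands alone at 896 Igkc UMIs.

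Mature cells were next compared with precursors of the same libraries. UMIs were summed per library and cell set, the 12 genes of the rule were left out, and edgeR's quasi-likelihood test was run with the library as a block. Levels are UMIs per 1000000 UMIs (CPM) of the set in that library, and each log2 fold change is given ± its standard error. Both sets were defined by genes of the same cells, so genes that vary along with the 12 can follow from the choice. With the default filter, 218 genes were tested and 46 were called at a Benjamini-Hochberg adjusted p below 0.05, which is 21.1%. Mature cells were higher in 16 genes (7.34%) and lower in 30 (13.8%). Both cell division genes tested were lower, as was 1 of the 2 precursor genes tested, and the only peripheral B-cell gene tested, Klf2, was higher. Klf2 is also in the list of genes that respond to stimulation and tissue dissociation.

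Klf2, a transcription factor of quiescence and trafficking in lymphocytes, was higher in mature cells. It stood at 1844 and 1614 CPM in mature cells of SOD1-Nec, 3646 and 1569 in SOD1-Veh and 3978 and 891 in WT-Veh, and at 565 and 393 CPM in precursors of SOD1-Nec, 191 and 464 in SOD1-Veh and 308 and 621 in WT-Veh. Every mature level lay above every precursor level (log2 fold change 2.17 ± 0.35, adjusted p = 0.00105). Shisa5, a membrane protein of the endoplasmic reticulum linked to p53-dependent apoptosis, had 802 and 667 CPM in mature SOD1-Nec cells, 1134 and 1190 in SOD1-Veh and 1439 and 693 in WT-Veh. Its precursor levels were 283 and 148 CPM in SOD1-Nec, 76.6 and 109 in SOD1-Veh and 123 and 178 in WT-Veh, again without overlap (2.51 ± 0.34, adjusted p = 0.000269). Cd52, a small glycoprotein on the surface of mature lymphocytes, was 1.47 ± 0.29 higher on the log2 scale (adjusted p = 0.0034). Its mature levels were 1523 to 2276 CPM and its precursor levels 404 to 1295 CPM. Klf6 (2.44 ± 0.42) and Junb (2.34 ± 0.41), both stress-responsive transcription factors, were also higher (adjusted p = 0.00182 each), as were Tsc22d3, a glucocorticoid-induced regulator (1.00 ± 0.25, adjusted p = 0.0141), and Tmsb4x, an actin-binding peptide (0.78 ± 0.20, adjusted p = 0.0142). Without the barcodes that held a myeloid UMI, Tmsb4x stood at 0.44 and was not called (adjusted p = 0.126), though at a minimum count of 3 it was called (0.64, adjusted p = 0.0163).

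Apoe and Cst3 were called higher too, at 2.08 ± 0.59 (adjusted p = 0.0242) and 1.43 ± 0.40 (adjusted p = 0.0231), but both are abundant in microglia and monocytes. The 19 barcodes with a myeloid UMI held 295 Apoe and 318 Cst3 UMIs, against 57 and 76 in the other 115. Without barcodes that held a myeloid UMI, at a minimum count of 3, the log2 difference was 0.64 for Apoe (adjusted p = 0.241) and 0.24 for Cst3 (adjusted p = 0.605). Klf2 (2.33), Shisa5 (2.58), Cd52 (1.51), Klf6 (1.97) and Junb (2.13) were called in that fit, which tested 625 genes and called 115 (18.4%), 42 higher (6.72%) and 73 lower (11.7%).

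The lower genes included chromatin proteins of dividing cells. Hmgb2, a chromatin protein of proliferating cells, had 321 and 596 CPM in mature SOD1-Nec cells, 405 and 758 in SOD1-Veh and 423 and 792 in WT-Veh. Its precursor levels were 4684 and 3467 CPM in SOD1-Nec, 6930 and 4720 in SOD1-Veh and 2837 and 1775 in WT-Veh (log2 fold change -2.96 ± 0.30, adjusted p = 4.9e-05). Every mature level lay below every precursor level. Hmgb1, its relative, differed by -2.35 ± 0.17 (adjusted p = 2.58e-06), H2afz, a variant histone, by -2.20, and Smarca4, the motor of the BAF chromatin remodeller, by -3.26 ± 0.41 (adjusted p = 0.000153). Atp1b1, a subunit of the sodium pump, gave the most negative log2 fold change among the called genes, -3.55 ± 0.42 (adjusted p = 0.000128), with 0 to 162 CPM in mature cells and 613 to 1243 CPM in precursors. Cd24a, a surface protein high on immature B cells, was at 0 to 693 CPM in mature cells and 1555 to 2302 CPM in precursors (-2.28 ± 0.37, adjusted p = 0.00105).

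**Figure D4:**
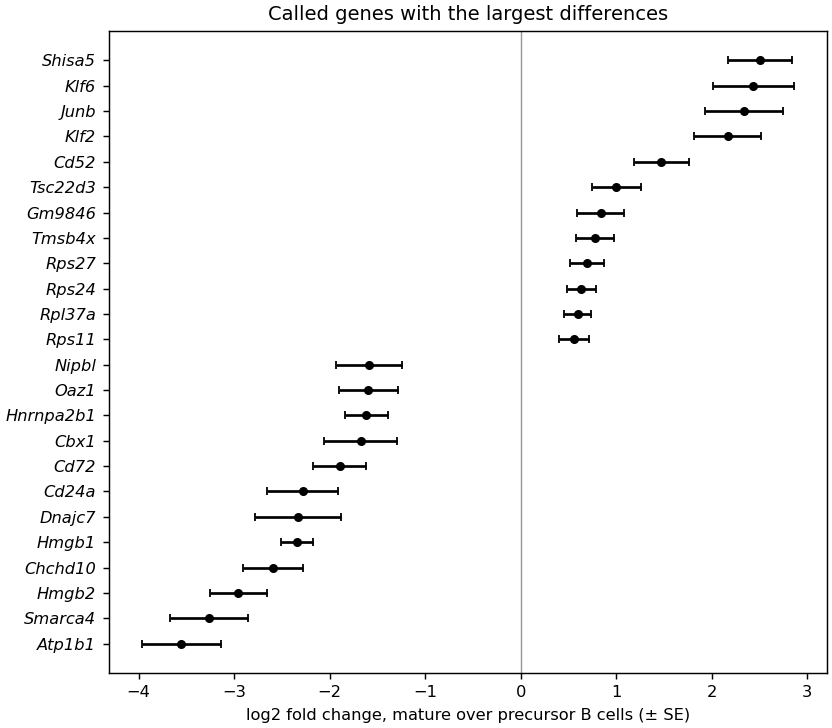
Log2 fold change of mature over precursor B cells (± SE, edgeR, 6 libraries with each set) for the called genes with the greatest differences that had the same sign in all libraries. Shisa5, Klf6, Junb and Klf2 stand furthest to the higher side, and Atp1b1, Smarca4 and Hmgb2 furthest to the lower side.

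All 7 B-cell identity genes tested outside the rule had negative log2 fold changes, with a median of -1.11 against 0.003 over all 218 genes. Called lower in mature cells were 5 of them: Cd24a, Cd72, Pax5, Fcrla and Ebf1. With barcodes that held a myeloid UMI left out, at the default filter, Cd24a (-2.16, adjusted p = 9.15e-05) and Ebf1 (-0.97, adjusted p = 0.0432) were called. Fcrla then lost its call (-1.02, adjusted p = 0.0501), and Cd72 and Pax5 were not tested. At the minimum count of 3 described below, 16 were tested, with 5 called lower and 1 higher. These counts leave out Faim3, an older symbol of the listed gene Fcmr. It was called higher in mature cells at that setting (1.44 ± 0.40, adjusted p = 0.0185). Cd72, an inhibitory co-receptor, had 140 to 339 CPM in mature cells and 710 to 1255 CPM in precursors (-1.89 ± 0.28, adjusted p = 0.000484). Pax5, the factor that fixes B-lineage identity, had 0 to 1443 CPM in mature cells and 409 to 1979 CPM in precursors, ranges that overlap, but it was lower in mature cells of all 6 libraries (-1.57 ± 0.40, adjusted p = 0.0141). The light chains gave 0.84 ± 0.54 for Igkc (adjusted p = 0.310) and 0.80 ± 0.34 for Iglc2 (adjusted p = 0.112), and neither was called. At a minimum count of 3, Iglc2 was called (0.99 ± 0.31, adjusted p = 0.0375) and Igkc was not (1.03 ± 0.44, adjusted p = 0.136). With barcodes that held a myeloid UMI also left out, both were called, Igkc at 1.27 ± 0.40 (adjusted p = 0.0244) and Iglc2 at 1.18 ± 0.28 (adjusted p = 0.00249). The Igj barcode, with 896 of the 1167 Igkc UMIs of mature cells, was kept in these light chain fits. Of 76 ribosomal protein genes tested, 60 had a positive log2 fold change (median 0.23). Called higher were 6 of them (7.89%, near the 7.34% of all genes), and 1 was called lower.

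Genes with 0 UMIs in mature cells mark the boundary with precursors. Mki67, a protein of dividing cells, had 0 UMIs in 134 mature cells and 103 in 26 of 194 precursors. The precursor level was 20.7 times a floor of 3 UMIs over all mature cells. This floor allows for counting error in the mature cells only. Counting error in the precursors and the spread between libraries are not in it, so the ratios are not lower bounds. Il7r, the receptor for the growth factor of precursor B cells, had 0 UMIs in mature cells and 85 UMIs in 51 precursors (17.1 times the floor). Rag1 and Rag2, the recombinase that cuts immunoglobulin genes, had 0 UMIs in mature cells against 25 and 10 in precursors (5.02 and 2.01 times the floor). The Rag2 value rests on 8 precursors. A count of 0 in 134 cells allows a share of up to 2.24% of cells with a UMI. Top2a, a topoisomerase of dividing cells, had 4 UMIs in 3 mature cells, all in SOD1-Nec, against 150 UMIs in 32 precursors.

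The default filter left out the class II pathway genes beyond the rule and, apart from Klf2, the peripheral B-cell genes, which had too few UMIs. The comparison was therefore repeated at a minimum count of 3, a setting chosen after the data were seen. It tested 876 genes and called 123 (14.0%), 55 higher (6.28%) and 68 lower (7.76%). A gene with few UMIs passes that filter mainly through the set in which it is higher, so list counts describe the tested genes only.

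Of 13 class II pathway genes beyond the rule, 4 passed the filter, and each was called higher in mature cells. The mature cells were chosen for class II UMIs, and the filter favours genes that are higher in a set. The count of 4 is therefore not independent support for the rule. H2-DMa and H2-DMb2 encode chains of H2-DM, which exchanges the invariant-chain remnant for antigen peptides. H2-DMb2 had 15 and 10 UMIs in mature cells of SOD1-Nec, 5 and 12 in SOD1-Veh and 13 and 1 in WT-Veh, against 0 and 4 in precursors of SOD1-Nec, 3 and 7 in SOD1-Veh and 0 and 2 in WT-Veh. It was higher in mature cells in 5 of 6 libraries by UMIs (2.55 ± 0.57, adjusted p = 0.00414). H2-DMa had 2 and 9 UMIs in mature cells of SOD1-Nec, 7 and 10 in SOD1-Veh and 8 and 3 in WT-Veh, against 1 and 4 in precursors of SOD1-Nec, 1 and 1 in SOD1-Veh and 3 and 0 in WT-Veh (2.67 ± 0.55, adjusted p = 0.00209). It was seen in 5.75% of barcodes without B-gene UMIs and was not tested once barcodes with a myeloid UMI were left out. H2-Ob, the beta chain of H2-O, which restrains H2-DM in B cells, had 9 and 7 UMIs in mature cells of SOD1-Nec, 9 and 4 in SOD1-Veh and 10 and 2 in WT-Veh, against 1 and 6 in precursors of SOD1-Nec, 1 and 3 in SOD1-Veh and 1 and 3 in WT-Veh (2.15 ± 0.55, adjusted p = 0.0113). Without barcodes with a myeloid UMI, H2-DMb2 stood at 2.77 ± 0.53 and H2-Ob at 2.17 ± 0.56, both called. Ctss, the protease that trims the invariant chain, was at 2.32 ± 0.46 (adjusted p = 0.00166), and at 1.50 ± 0.46 without those barcodes (adjusted p = 0.0195). Ctss was seen in 28.4% of mature cells, 12.9% of precursors and 30.6% of barcodes without B-gene UMIs.

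The remaining class II pathway genes were too rare to test. H2-Oa had 17 UMIs in mature cells and 4 in precursors, H2-DMb1 16 and 5, and H2-Eb2 2 and 0. Ciita, the coactivator that switches on class II transcription, had 6 UMIs in 5 mature cells and 2 UMIs in 1 precursor. Few molecules of this regulator were seen beside 2204 UMIs of its targets in the rule.

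Promoters of some of these genes are shown because their products were measured together. Those of Cd74, H2-Ab1, H2-Eb2 and Ciita are not among them, and H2-DMa is described below without its sequence. Class II promoters are known for the Y box, a site bound by NF-Y, whose letters CTGATTGG were searched on both strands together with the shorter GATTGG inside them. In RefSeq (GRCm38.p6) windows from 250 bases before to 50 after the start site, CTGATTGG lies in 4.10% of 32851 windows and GATTGG in 16.1%. Of the 100 bases from 120 to 21 before the start, each printed 5′ to 3′ on the gene's own strand with the match in capitals, H2-Aa (chr17:34287844-34287943, minus strand), H2-Eb1 (chr17:34305747-34305846, plus strand), H2-Oa (chr17:34092259-34092358, plus strand), H2-Ob (chr17:34238785-34238884, plus strand), H2-DMb1 (chr17:34153071-34153170, plus strand) and H2-DMb2 (chr17:34145129-34145228, plus strand) read as follows.
H2-Aa: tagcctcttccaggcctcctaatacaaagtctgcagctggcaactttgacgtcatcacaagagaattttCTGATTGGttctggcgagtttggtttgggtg
H2-Eb1: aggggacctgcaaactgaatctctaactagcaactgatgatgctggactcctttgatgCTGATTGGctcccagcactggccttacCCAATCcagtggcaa
H2-Oa: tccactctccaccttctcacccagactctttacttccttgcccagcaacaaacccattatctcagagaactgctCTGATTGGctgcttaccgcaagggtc
H2-Ob: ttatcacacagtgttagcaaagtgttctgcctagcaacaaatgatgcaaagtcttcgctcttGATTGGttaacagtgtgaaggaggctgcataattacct
H2-DMb1: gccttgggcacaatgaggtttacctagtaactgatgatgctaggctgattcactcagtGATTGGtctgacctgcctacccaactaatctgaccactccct
H2-DMb2: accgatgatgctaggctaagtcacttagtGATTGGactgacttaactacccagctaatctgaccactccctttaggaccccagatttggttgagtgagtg

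H2-Aa, H2-Eb1 and H2-Oa held CTGATTGG at 51, 62 and 46 bases before the start. H2-Ob, H2-DMb1 and H2-DMb2 held GATTGG at 58, 62 and 91 bases. H2-Eb1 held a further GATTGG on the opposite strand, which reads CCAATC in the printed line. H2-DMa had none in the window of its first listed start site, and a GATTGG at 199 bases before its second. A match describes letters only and is not evidence of binding.

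Of 15 listed peripheral B-cell genes, Klf2, H2-Ob, Fcer2a and Cd55 passed the filter, and each was called higher in mature cells. The same limit of the filter holds here. H2-Ob is also counted in the class II list and Klf2 in the immediate-early list. Fcer2a, the low-affinity IgE receptor CD23 of follicular B cells, had 4 and 5 UMIs in mature cells of SOD1-Nec, 3 and 5 in SOD1-Veh and 6 and 5 in WT-Veh, against 1 and 2 in precursors of SOD1-Nec, 0 and 0 in SOD1-Veh and 1 and 1 in WT-Veh. The sets did not overlap (3.01 ± 0.63, adjusted p = 0.00248). Cd55, a complement regulator, had 30 UMIs in mature cells and 12 in precursors (2.15 ± 0.61, adjusted p = 0.0213). Untested genes of the list were rare. Gpr183, a receptor that guides B cells within follicles, had 24 UMIs in 17 mature cells and 0 in precursors. Cr2, the complement receptor CD21, had 16 UMIs against 1, and Ccr7, the homing receptor for lymph nodes, 26 against 14. Cd83, an activation and maturation marker, had 45 UMIs in mature cells, 20 of them in SOD1-Nec 2, and 8 in precursors. Bank1, a B-cell scaffold protein from the identity list, was higher as well (2.40 ± 0.62, adjusted p = 0.0110).

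At this minimum count the precursor list beyond the rule had 9 genes tested, 7 lower and 0 higher. The precursors were chosen by precursor genes, so these counts have the same limit. Sox4 (-3.92 ± 0.57), Tifa (-3.77 ± 0.57) and Myb (-3.67 ± 0.70) were lower, all with adjusted p below 0.05, and Myb and Sox4 are transcription factors of early lymphoid cells. Of 11 cell division genes tested, 9 were lower and 0 higher, among them Stmn1 at -2.36 ± 0.51 and Tubb5 at -1.94 ± 0.48. Immediate-early genes, which respond within minutes to stimulation and to tissue dissociation, had 16 tested, 8 higher and 1 lower. Klf2, Klf6 and Junb are in this list and among the 8 higher. Nr4a1, a reporter of recent antigen-receptor signalling in B cells, had 32 UMIs in mature cells and 4 in precursors (3.68 ± 0.73, adjusted p = 0.00166). Fos had 88 UMIs in mature cells, 52 of them in SOD1-Nec 2 and 23 of those in the Igj barcode, and 11 in precursors (3.48 ± 0.50, adjusted p = 6.72e-05). It was not tested without barcodes with a myeloid UMI, while Nr4a1 stood at 3.75 ± 0.77 and was called. Jund was the lower gene (-0.66 ± 0.21, adjusted p = 0.0375). The 31 oxidative phosphorylation genes tested (median -0.35) and the 8 MHC class I genes tested (median 0.25) held no call. Of the 123 calls, 109 genes could be tested without barcodes with a myeloid UMI, all 109 kept their sign and 96 were called. The marker Lyz2 of monocytes and macrophages was called higher in mature cells as well (3.73 ± 0.61, adjusted p = 0.000234). Lyz2 is 1 of the 8 myeloid genes, and its 179 UMIs lay in 16 of the 19 barcodes.

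Germinal centre and memory genes were near 0 in mature cells. The class-switched heavy chains Ighg1 and Igha had 0 UMIs, Ighg2b had 1 and Bcl6 had 1. Of 12 listed immunoglobulin symbols, 6 were among the genes that every library lists. Ighd, Ighg2c and Ighg3 were not, so they could not be read. At a median of 497 UMIs per cell, these low counts do not show that such cells were absent. Plac8, a marker of marginal zone and B1 cells that myeloid cells also express, had 60 UMIs in mature cells and 39 in precursors (1.25 ± 0.41, adjusted p = 0.0488). Of the costimulatory genes, Cd86 had 7 UMIs, Cd40 2 and Cd80 0 in mature cells.

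The share of mature B cells among retained barcodes was compared between groups first. It was 3.63% and 4.41% in SOD1-Nec, 5.01% and 5.49% in SOD1-Veh and 3.11% and 2.71% in WT-Veh. Averages were 4.02% ± 0.55 in SOD1-Nec, 5.25% ± 0.34 in SOD1-Veh and 2.91% ± 0.28 in WT-Veh (SD, n = 2 each). No pair of groups overlapped. Barcodes were also thinned to 500 UMIs, with those under 500 UMIs left out, which took SOD1-Nec 1 from 661 to 361 retained barcodes. The shares were then 2.49% and 3.04% in SOD1-Nec, 3.45% and 3.97% in SOD1-Veh and 2.59% and 2.43% in WT-Veh, and SOD1-Nec and WT-Veh overlapped. Before thinning, the differences were as follows. SOD1-Veh exceeded WT-Veh by 2.35 percentage points, SOD1-Nec was below SOD1-Veh by 1.23 points and above WT-Veh by 1.11 points. The two-sided exact permutation p was 0.333 for each, which is the smallest p that 2 libraries against 2 can give. The exact binomial intervals of neighbouring libraries overlapped, as the 95% interval ran from 3.55 to 8.06% in SOD1-Veh 2 and from 1.79 to 5.00% in WT-Veh 1.

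Retained barcodes with at least 1 B-gene UMI, called B-lineage here, include the mature cells and had the same order of group means. They also include 249 barcodes with fewer than 3 class II UMIs and no precursor gene, with a median of 1 B-gene UMI. Of these 249, 126 held a myeloid UMI and 174 held no light chain UMI, so the set may not be B cells alone. B-lineage barcodes were 18.5% ± 1.98 of retained barcodes in SOD1-Nec, 21.2% ± 1.34 in SOD1-Veh and 12.1% ± 4.33 in WT-Veh (SD, n = 2 each). Precursors were 6.53% in SOD1-Nec, 7.03% in SOD1-Veh and 3.68% in WT-Veh. Among B-lineage barcodes, the mature share was 21.2% and 22.2% in SOD1-Nec, 24.7% and 24.7% in SOD1-Veh and 20.5% and 30.0% in WT-Veh. SOD1-Veh and WT-Veh differed by -0.54 percentage points and overlapped (exact permutation p = 1), as did SOD1-Nec and WT-Veh (-3.56 points, p = 1). SOD1-Nec was below SOD1-Veh by 3.02 points without overlap (exact permutation p = 0.333). Each of these 3 differences had the other sign under at least 1 other setting. The makeup of the rest of the barcodes also differed: skeletal muscle genes took 1.17% and 2.38% of UMIs of barcodes without B-gene UMIs in SOD1-Veh and at most 0.00151% in the other libraries. Their part in the shares was not tested.

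**Figure D5:**
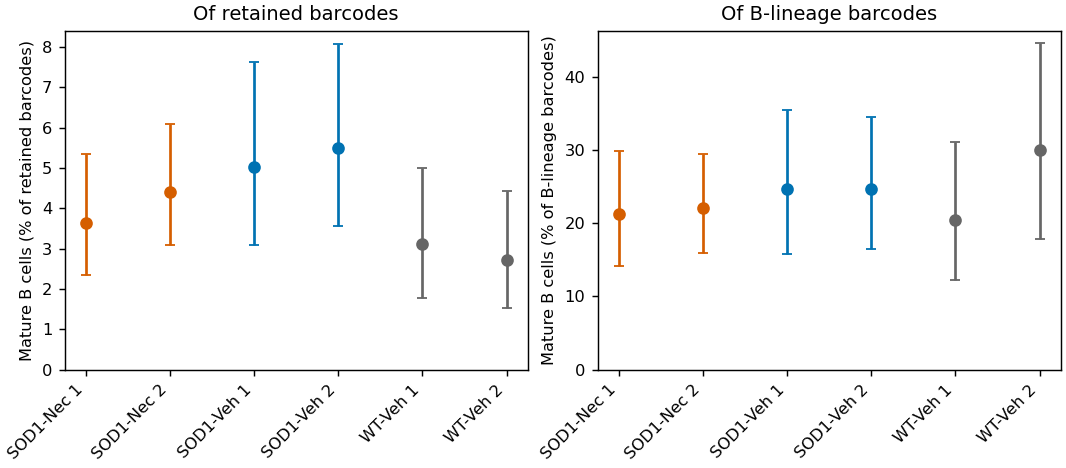
Mature B cells as a percentage of retained barcodes (left) and of B-lineage barcodes (right) in each library, with exact 95% binomial intervals for counting error. On the left both SOD1-Veh libraries lie above both SOD1-Nec libraries and those above both WT-Veh libraries; on the right WT-Veh 2 is the highest and WT-Veh 1 the lowest.

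Expression within mature cells was then tested between groups, on UMIs summed per library over 203 genes. The gene listed as Sod1 was read first, since it should follow the transgene. It had 18 and 63 UMIs in mature cells of SOD1-Nec, 32 and 54 in SOD1-Veh and 5 and 0 in WT-Veh. In CPM these were 1443 and 2210 in SOD1-Nec, 2593 and 2922 in SOD1-Veh and 423 and 0 in WT-Veh, so both mutant groups lay above wild type without overlap. Barcodes with under 100 genes showed the same order against wild type, with 5210 and 5925 CPM in SOD1-Nec, 3236 and 4230 in SOD1-Veh and 97.8 and 78.9 in WT-Veh. Those levels exceeded the ones in mature cells of the mutant groups, and the part of such RNA in the mature cells was not tested. The log2 difference was 3.75 ± 0.68 for SOD1-Veh against WT-Veh (adjusted p = 0.117) and 3.26 ± 0.69 for SOD1-Nec against WT-Veh (adjusted p = 0.158). It was not called in either. Over 19 alternatives each, the adjusted p ran from 6.03e-05 to 0.969 for SOD1-Veh, which was called in 7, and from 0.000328 to 0.780 for SOD1-Nec, which was called in 4. With the replicate number as a block, Sod1 was called for SOD1-Veh against WT-Veh (3.70, adjusted p = 0.0430) and not for SOD1-Nec (3.20, adjusted p = 0.0823). Without WT-Veh 1, which leaves a wild-type library at 0 UMIs, the log2 difference was 8.43 for SOD1-Veh and 8.01 for SOD1-Nec, values that depend on the prior count. Without WT-Veh 2 it was 2.87 for SOD1-Veh and 2.46 for SOD1-Nec. SOD1-Nec and SOD1-Veh differed by -0.49 ± 0.46 (adjusted p = 0.664). Whether the transgene's human RNA is counted under this mouse symbol is not given in the sources used here.

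No gene was called between SOD1-Veh and WT-Veh (0.0% of 203), with 15 at an unadjusted p below 0.05 in edgeR and 1 call by DESeq2. Myelin gene Mbp stood at 9562 and 7846 CPM in SOD1-Veh and 5587 and 3859 in WT-Veh without overlap (1.04 ± 0.33, adjusted p = 0.519). In barcodes with under 100 genes Mbp stood at 29549 and 32639 CPM in SOD1-Veh and 18015 and 13907 in WT-Veh, and the part of such RNA in the mature cells was not tested. Rps18, a ribosomal protein gene, stood at 3646 and 2976 CPM in SOD1-Veh against 1862 and 1484 in WT-Veh (1.13 ± 0.29, adjusted p = 0.456). Egr1, an immediate-early factor, had 0 CPM in both SOD1-Veh libraries and 169 and 1583 CPM in WT-Veh (adjusted p = 0.519). The class II pathway genes Ctss (0.76 ± 0.93) and H2-DMb2 (0.01 ± 1.05) had standard errors near or above the differences themselves. So had Igkc (0.39 ± 1.02) and B2m, the light chain of class I (-0.20 ± 0.39).

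Between SOD1-Nec and SOD1-Veh, 1 of 203 genes was called (0.493%), with 31 at an unadjusted p below 0.05. It was Hbb-bt, a beta chain of adult haemoglobin, with 5450 and 3017 CPM in SOD1-Nec and 405 and 595 in SOD1-Veh (3.04 ± 0.41, adjusted p = 0.0171). Against WT-Veh, at 677 and 792 CPM, Hbb-bt was again the only call (0.493%, 17 at an unadjusted p below 0.05; 2.71 ± 0.41, adjusted p = 0.0389). These comparisons share the SOD1-Nec libraries. The near-identical Hbb-bs, with which Hbb-bt can share reads, had 34466 and 14315 CPM in SOD1-Nec, 2431 and 2705 in SOD1-Veh and 13120 and 4354 in WT-Veh (3.28 ± 0.61 against SOD1-Veh, adjusted p = 0.0715). Haemoglobin genes are not B-cell genes, and they took 6.57% and 2.69% of the UMIs of mature cells in SOD1-Nec, 0.397% and 0.492% in SOD1-Veh and 2.49% and 0.643% in WT-Veh. In SOD1-Nec 1 a single barcode held 736 haemoglobin UMIs, in SOD1-Nec 2 another held 305 and in WT-Veh 1 another held 235. Without the highest barcode of each library, the shares were 0.742% and 1.68% in SOD1-Nec, 0.375% and 0.550% in SOD1-Veh and 0.524% and 0.638% in WT-Veh, and SOD1-Nec still stood highest. Barcodes with under 100 genes had 68.8% and 77.7% haemoglobin in SOD1-Nec, 36.4% and 30.1% in SOD1-Veh and 55.1% and 51.4% in WT-Veh. The part of RNA from such barcodes in the call was not tested. Without barcodes with a myeloid UMI the call was lost, with a log2 difference of 2.83 against SOD1-Veh (adjusted p = 0.152) and 1.84 against WT-Veh (adjusted p = 0.775). It was also lost against SOD1-Veh without SOD1-Veh 1 (0.231), SOD1-Veh 2 (0.500) or WT-Veh 1, and against WT-Veh without SOD1-Veh 1 (0.159), SOD1-Veh 2 (0.314), WT-Veh 1 (0.292) or WT-Veh 2 (0.495). In these leave-one-out fits the log2 difference was 2.54 to 3.49.

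Other genes set apart between SOD1-Nec and SOD1-Veh were Tmsb10, an actin-binding peptide, at 1042 and 737 CPM in SOD1-Nec and 3565 and 2218 in SOD1-Veh (-1.65 ± 0.36, adjusted p = 0.0965), and Arpc1b, a subunit of the actin-nucleating Arp2/3 complex, at 160 and 175 CPM in SOD1-Nec against 810 and 974 in SOD1-Veh (-2.28 ± 0.70, adjusted p = 0.226). Neither overlapped between these groups and neither was called. The tables numbered 1 list other genes than those numbered 2 (18169 against 18650 symbols), so the table set was also fitted as a term. With it 7 genes were called between SOD1-Nec and SOD1-Veh, 5 higher and 2 lower. In single table sets each group has 1 library, which allows no test. DESeq2 called 5 genes in this comparison and 3 between SOD1-Nec and WT-Veh.

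The target of Necrostatin-1s and its partners were hardly seen in mature B cells. Ripk1 had 3 UMIs in 3 cells, 1 in SOD1-Nec 2 and 2 in WT-Veh 2, Ripk3 had 2 and Mlkl, the executor of necroptosis, 0. At this depth no difference between groups was detectable for them.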

How the data were processed

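Spinal cord cells were profiled by Drop-seq, per the labels' protocols. For each library the authors deposited a matrix of raw UMI counts, with gene symbols as rows and barcodes as columns. All entries are whole and none is scaled. The submitters' processing notes name the build mm9. The aligner is not given in the sources used here. All 21919 barcodes were read over the 17042 genes that every library lists. Shared barcodes between libraries were counted: 1 among retained barcodes and 0 among mature B cells. Scrublet, run per library in scanpy 1.11.5, marked 29 retained barcodes, 1 of them a mature B cell; it was kept.

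Counts were summed per library and cell set and compared by edgeR's quasi-likelihood method (version 4.0.16, R 4.3.3), with TMM factors, the filterByExpr default minimum count of 10 and Benjamini-Hochberg adjustment over all genes tested, called below 0.05. Group comparisons used 1 fit of 6 libraries, and mature against precursor cells used the library as a block. DESeq2 1.42.0 was an alternative. Shares were compared by exact permutation over libraries (scipy 1.17.1). Library sums of mature cells were 10116 to 28534 UMIs.

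The cells, the 26 gene lists and the comparisons were chosen with earlier results of these data known. Genes were named by size of change among calls, by smallest p, by up to 3 of each list, and from a fixed list of B-cell, class II and necroptosis genes; genes at a minimum count of 3 and genes given as counts were chosen after their values were seen. On simulated counts, edgeR called 3 of 26 genes changed by 1 on the log2 scale and 17 of 39 changed by 2 in the group comparisons, with 1 of 157 unchanged genes called. Between mature and precursor cells it called 20 of 33, 36 of 36 and 0 of 174.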

Additional observations from a re-analysis of the deposited data

Results flagged for a closer look

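Barcodes outside the filters also met the gene rule for mature B cells. Among barcodes with at least 200 genes but over 20% mitochondrial UMIs, 3 met it in SOD1-Nec, 0 in SOD1-Veh and 0 in WT-Veh, out of 409, 494 and 491 such barcodes. Among barcodes with under 200 genes, 0.276% met it in SOD1-Nec (13 of 4705), 0.0779% in SOD1-Veh (5 of 6421) and 0.182% in WT-Veh (11 of 6039). These barcodes enter no comparison of the report, and the differences between groups were not tested.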

How the results depend on the processing

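Differences in the share of retained barcodes kept their direction in all 12 alternatives each, but SOD1-Nec against WT-Veh ran from 0.256 to 2.06 percentage points. SOD1-Nec and WT-Veh overlapped after thinning, with at least 400 genes and with at most 10% mitochondrial UMIs, and SOD1-Nec and SOD1-Veh with at least 400 genes. Differences in the share of B-lineage barcodes turned: SOD1-Veh against WT-Veh was 8.04 percentage points with at least 400 genes, 2.35 with at most 10% mitochondrial UMIs and 4.20 without WT-Veh 2 (leave-one-out range -5.28 to 4.20). SOD1-Nec against SOD1-Veh was 0.59 with at least 2 B-gene UMIs, and SOD1-Nec against WT-Veh was 1.08 with at least 400 genes and 1.18 without WT-Veh 2 (range -8.30 to 1.18). The cause was not tested.

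Calls between SOD1-Veh and WT-Veh numbered 1 with DESeq2's test, at least 2 B-gene UMIs, the replicate block or myeloid UMIs left out, 5 without a filter and 0 to 1 with a library left out. Between SOD1-Nec and SOD1-Veh they numbered 5 with DESeq2's test, 16 without a filter, 2 at a minimum count of 3, 7 with the replicate block, 4 without doublets or with at least 2 B-gene UMIs, 6 without the Igj barcode and 0 to 13 with a library left out (13 without SOD1-Nec 1, 4 without SOD1-Nec 2, 0 without SOD1-Veh 1, SOD1-Veh 2 or WT-Veh 1, 3 without WT-Veh 2). They were 0 with at least 5 class II UMIs, at least 400 genes, at most 10% mitochondrial UMIs, or myeloid UMIs left out at either minimum. Between SOD1-Nec and WT-Veh they numbered 3 with DESeq2's test, 9 without a filter, 4 without doublets, 2 with at least 2 B-gene UMIs and 0 to 6 with a library left out, 6 of them without SOD1-Nec 1. They were 0 with at least 5 class II UMIs, at least 400 genes, at most 10% mitochondrial UMIs, or myeloid UMIs left out at either minimum.

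Replicate numbers in the labels name no shared batch. Differences of replicate 1 minus 2 correlated across 203 genes at 0.23 between SOD1-Nec and SOD1-Veh, 0.30 between SOD1-Nec and WT-Veh and 0.12 between SOD1-Veh and WT-Veh. Same-numbered libraries also listed the same number of genes, 18169 for replicate 1 and 18650 for replicate 2. What same-numbered libraries share beyond that is not given, and the main group fits hold no term for it. The replicate block gave 1 call between SOD1-Nec and WT-Veh.

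Calls between mature and precursor cells numbered 152 without a filter, 123 at a minimum count of 3, 115 with myeloid UMIs also left out, 21 with at least 2 B-gene UMIs, 13 with at least 400 genes, 11 after thinning to 500 UMIs and 31 to 61 with a library left out. Thinning left out barcodes under 500 UMIs, among them 68 mature cells and 71 precursors, and left 91 genes to test. The gene rule was applied again to the thinned UMIs, so barcodes could also leave or change set. Mature cells then numbered 9 and 13 in SOD1-Nec, 10 and 12 in SOD1-Veh and 9 and 8 in WT-Veh. Precursors numbered 15 and 25 in SOD1-Nec, 19 and 13 in SOD1-Veh and 13 and 7 in WT-Veh. Of the 46 calls, 41 were also called by DESeq2's test, 38 without the library block and 33 without a filter. Fewer could be tested in smaller sets: 19 of 29 were called with at least 2 B-gene UMIs, 24 of 31 with myeloid UMIs left out, 13 of 29 with at least 400 genes and 8 of 16 after thinning. Each kept its sign wherever it was tested. Sums of 10116 to 28534 UMIs limit the group comparisons, where 3 of 26 simulated differences of 1 on the log2 scale were called.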
